A study of Mus musculus with 6 samples.

Results

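The superoxide dismutases, catalase and the peroxidases are the enzymes that remove superoxide and peroxides from cells. Transcripts of 10 such enzymes were followed here in enteric glial cells (EGCs), which surround the neurons of the gut wall, with and without lipopolysaccharide (LPS), a component of the bacterial cell wall. They were taken by gene symbol: Sod1, Sod2, Sod3, Cat, Gpx1, Gpx3, Gpx4, Prdx1, Prdx5 and Prdx6, which are 10 of the 46603 gene identifiers counted. The EGCs were grown from neurospheres, floating clusters of neural progenitors, that had been prepared from embryonic gut of the C57BL/6J strain (E14.5). There were 3 control libraries, without treatment, and 3 libraries from EGCs given LPS at 100 ng/ml for 12 h, and poly(A) RNA of each was sequenced. No allele, transgene or sort is given for either group. The labels give each library a replicate number but do not say whether numbers mark separate cultures or litters, so the p-values measure the spread between these libraries.

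Superoxide dismutases turn superoxide into hydrogen peroxide and oxygen. SOD1 works in the cytosol, SOD2 in the mitochondrial matrix and SOD3 outside the cell. Catalase, glutathione peroxidases and peroxiredoxins then reduce hydrogen peroxide or lipid peroxides, drawing on haem, glutathione or thioredoxin. Mitochondrial SOD2 is a well-known target of NF-kB signaling, which LPS engages through TLR4.

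Library totals ran from 18775316 to 23664312 counts. Levels are given as CPM, the deposited counts relative to library size per 1e6 counts, with sizes scaled by the TMM method, as mean ± SD with n = 3. The cultures were mixed. The glial markers Sox10, S100b, Gfap, Erbb3 and Entpd2 were all counted in every library and summed to between 213 and 285 CPM in control and between 204.6 and 215 CPM in LPS libraries, and 1 of these 5, S100b, was called lower. The 7 mesenchymal markers, led by Col1a1, summed to between 15085 and 16122 CPM over the 6 libraries, and 2 of the 7 were called higher, Dcn (1203 ± 54.0 to 2244 ± 318 CPM) and Pdgfra (176 ± 8.69 to 249 ± 7.47 CPM). Another of the 7, Lum, went the other way (283 ± 45.2 to 171 ± 46.9 CPM, log2 fold change -0.73) and was not called. With the replicate numbers as a block, Lum was called lower (edgeR adjusted p = 0.00581). The 6 smooth muscle markers, led by Acta2, summed to between 2266 and 2492 CPM in control and between 634 and 900.3 CPM in LPS libraries, and all 6 were called lower. The 11 macrophage markers, led by Lyz2, summed to 3873, 4985 and 11817 CPM in control and 3916, 5076 and 19367 CPM in LPS libraries. Replicate 3 of both groups thus stood apart, with the highest macrophage sum in its group. One macrophage marker, Adgre1, was called higher and none lower, and 10 of the 11 were above 3 counts in every library. With the replicate numbers as a block, 4 were called higher (Adgre1, Ptprc, Fcgr1 and Aif1) and 3 lower (Cd68, Cx3cr1 and Mrc1, the last with a log2 fold change of -3.92). Epithelial markers, led by Krt8, stayed between 1.42 and 3.06 CPM in sum, endothelial markers, led by Kdr, between 8.05 and 20.7 CPM, and erythroid markers, led by Epor, between 1.17 and 2.56 CPM, with 3 of 5 erythroid markers at or under 3 counts in every library. Mesothelial markers (led by Wt1) summed to between 58.0 and 86.7 CPM in control and between 30.98 and 54.3 CPM in LPS libraries. None of these 3 markers was called, and all 3 were called lower with the block. Markers of interstitial cells of Cajal (led by Ano1, with Kit called lower) summed to between 68.15 and 203.5 CPM in control and between 50.5 and 87.0 CPM in LPS libraries.

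To examine the response of these enzymes to LPS, the libraries were compared with edgeR's quasi-likelihood test, with Benjamini-Hochberg adjustment over the 15226 genes tested and a call at an adjusted p under 0.05. All 10 transcripts were tested. In LPS, 5 were called higher (Sod2, Sod3, Prdx1, Prdx5 and Prdx6), 1 was called lower (Gpx1) and 4 were not called (Sod1, Cat, Gpx3 and Gpx4). Over all genes tested, 15.8% were called, 9.09% higher and 6.71% lower. A second fit, in which replicate numbers formed a block, gave 5 of the 10 as higher and 2 as lower (Gpx1 and Gpx3), and it called 30.3% of all genes, 15.4% higher and 14.9% lower. The median log2 fold change of the 10 was 0.35, beside -0.02 over all genes. In 5 transcripts every LPS library was above every control library and in 2 every LPS library was below (Gpx1 and Gpx3), where 38.7% of all genes had groups that did not overlap, 19.3% above and 19.4% below. In bulk RNA, fewer cells of a type and less RNA per cell cannot be told apart. The number called higher changed when 1 library was dropped. It was 3 of the 10 with LPS replicate 1 dropped and 2 with LPS replicate 2 dropped. It was also 2 with either of control replicates 1 and 2 dropped. Calls higher over all genes went down in these runs too, from 1384 to 619 and 523 for LPS replicates 1 and 2. They went down to 470 and 379 for control replicates 1 and 2. With replicate 3 of either group dropped, 5 of the 10 stayed higher, beside 1174 (control) and 1964 (LPS) of all genes. The reason for these changes was not tested.

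**Figure D1:**
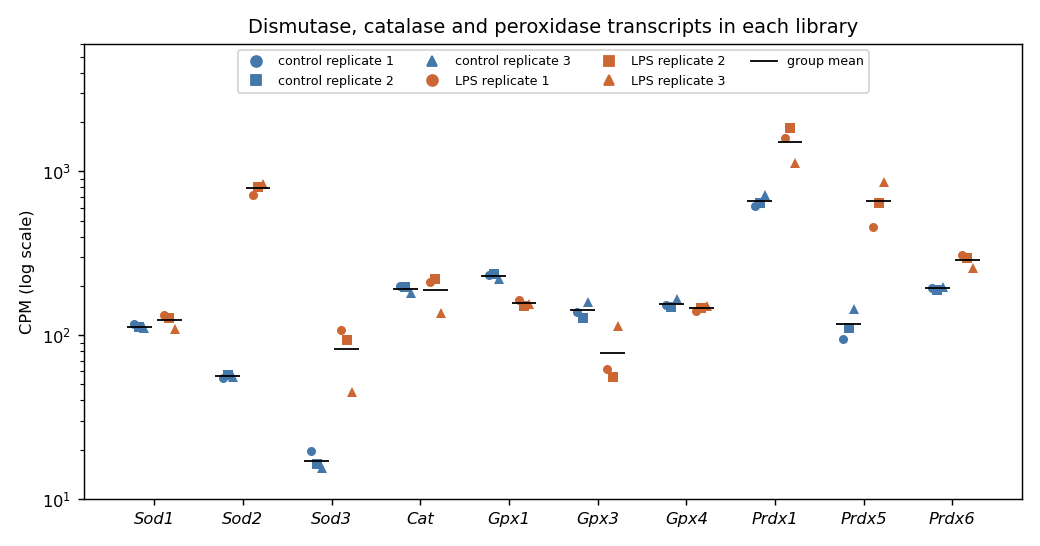
CPM on a log axis for each of the 10 transcripts in 3 control (blue) and 3 LPS (orange) libraries, with the marker shape giving the replicate number and the bar the group mean. Sod2 moves from about 56.1 to 788 CPM with little spread, and replicate 3 of LPS lies apart from the rest of its group in Sod3, Cat, Gpx3 and Prdx1.

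**Figure D2:**
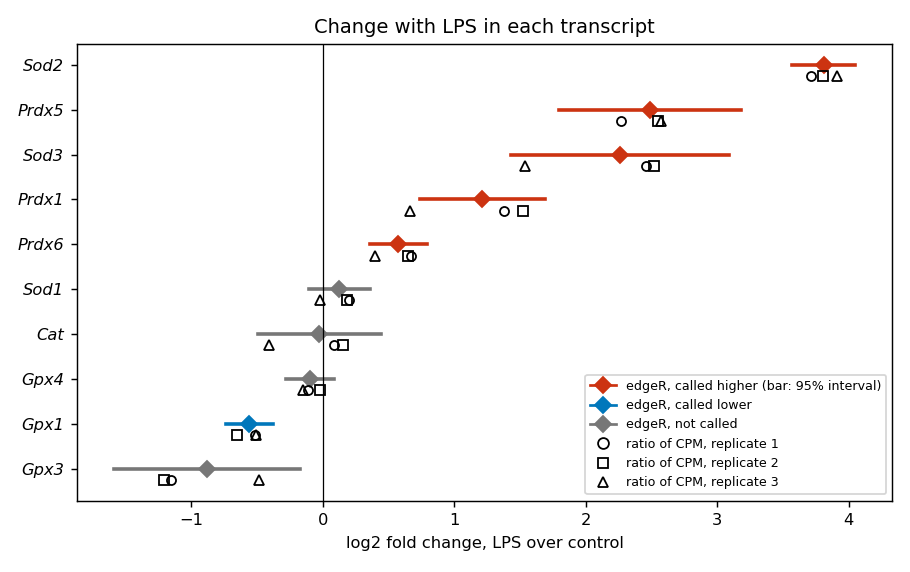
Log2 fold change of each transcript, LPS over control, as a diamond with its 95% interval from the edgeR fit (red called higher, blue called lower, grey not called), and open symbols below it for the ratio of CPM within each replicate number, 3 libraries a group. Sod2 has the highest fold change and a narrow interval, from 3.57 to 4.05, while those of Sod1, Cat and Gpx4 span 0.

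The promoters of Sod2 and Prdx1, which rose, and of Gpx1, which fell, are shown because all 3 hold a match to the NF-kB consensus. They are RefSeq sequence on GRCm38.p6, 5′ to 3′ on the gene's strand, and run from 250 bases before the RefSeq start to the last base before any annotated UTR. The Sod2 stretch lies at chr17:13007589-13007816, that of Prdx1 at chr4:116685349-116685543 and that of Gpx1 at chr9:108338830-108339053, all on the plus strand. The RefSeq starts used for these windows differ from those of the GENCODE gene spans given with each gene, so the whole Sod2 stretch and the greater part of the Gpx1 stretch, each with its motif match, lie within the GENCODE spans. Capitals mark the motif matches.
Sod2: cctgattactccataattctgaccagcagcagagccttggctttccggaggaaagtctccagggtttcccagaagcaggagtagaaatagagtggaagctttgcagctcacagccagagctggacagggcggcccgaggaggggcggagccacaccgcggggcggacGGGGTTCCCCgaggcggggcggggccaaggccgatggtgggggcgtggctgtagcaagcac
Prdx1: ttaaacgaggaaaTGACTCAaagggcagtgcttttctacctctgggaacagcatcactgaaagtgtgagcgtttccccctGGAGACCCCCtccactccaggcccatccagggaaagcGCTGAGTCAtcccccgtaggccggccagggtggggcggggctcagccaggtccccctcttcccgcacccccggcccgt
Gpx1: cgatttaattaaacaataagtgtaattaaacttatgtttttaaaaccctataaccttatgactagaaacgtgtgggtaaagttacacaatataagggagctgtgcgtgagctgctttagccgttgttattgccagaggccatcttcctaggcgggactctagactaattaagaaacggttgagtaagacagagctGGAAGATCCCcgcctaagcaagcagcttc
The 3 motifs below were searched on both strands of the 250 bases before the start: the NF-kB consensus, the antioxidant response element core TGACNNNGC, to which NRF2 binds, and the AP-1 motif TGANTCA. RefSeq promoters were matched for 8 of the 10 genes, all but Sod3 and Prdx6. The NF-kB consensus was matched in 4 of the 8 (Cat, Gpx1, Prdx1 and Sod2) and in 7.25% of all 32851 promoter windows of that length. The antioxidant response element core was matched in Prdx1 and Sod1 and in 10.2% of all windows. The AP-1 motif was matched in Prdx1, at 2 places of which one overlaps its antioxidant response element match, and in 6.75% of all windows. Genes with an NF-kB match thus include Sod2 and Prdx1, which were called higher, Gpx1, which was called lower, and Cat, which was not called. A match is a string of letters, and binding was not measured.

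Sod2, which encodes the manganese dismutase of mitochondria, showed the highest fold change of the 10. Its gene lies at chr17:13006846-13040063 (GRCm38, plus strand). It was at 54.9, 57.4 and 55.9 CPM in control libraries and 720.4, 800.4 and 843 CPM in LPS libraries. The groups were far apart and each was tight. Sod2 rose 14.1-fold, from 56.1 ± 1.24 to 788 ± 62.1 CPM (log2 fold change 3.81, SE 0.098, 95% interval 3.57 to 4.05, edgeR adjusted p = 7.71e-05). Of all genes tested, 1.52% changed by more. It was called under all 16 alternatives tried, and its log2 fold change stayed between 3.76 and 3.88 when any one library was left out. Of the 31-base words in its exons, 26.7% also occur in other genes, and of those in its principal transcript 3.88%, so the reads of its other exons are less certain.

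The genes whose log2 CPM followed Sod2 most closely over the 6 libraries were Ccl5, Phf11d, Oasl2, Rasgrp1 and Xaf1, with Pearson's r between 0.9995 and 0.9996 among 9957 genes with a mean of at least 10 CPM. This is a description of 2 groups that lie apart, and 697 of these genes had an r over 0.95. All of the named genes but Oasl2 were under 10 CPM in every control library and met that minimum only through the LPS group, so the ranking favours genes that rose.

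Sod3, the secreted copper and zinc dismutase (chr5:52363791-52371418, plus strand), was the scarcest of the 10 in control libraries. It was at 19.5, 16.4 and 15.5 CPM in control and 107 CPM, 94.0 CPM and 45.01 CPM in LPS libraries. LPS replicate 3 was the lowest of its group and still above every control. Sod3 rose 4.80-fold (17.1 ± 2.11 to 82.1 ± 32.8 CPM, log2 fold change 2.26, SE 0.34, 95% interval 1.44 to 3.09, edgeR adjusted p = 0.0119). The call was lost without control replicate 1 (adjusted p = 0.0550), control replicate 2 (0.0729) or LPS replicate 2 (0.0534). The macrophage marker sum was highest in the LPS library where Sod3 was lowest, and its part in the result was not tested.

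Sod1, the copper and zinc dismutase of the cytosol (chr16:90220754-90226329, plus strand), was not called. It was at 116 CPM, 112 CPM and 110.0 CPM in control and 134 CPM, 128 CPM and 108.5 CPM in LPS libraries, and the groups overlapped. The log2 fold change was 0.13 (SE 0.096, 95% interval -0.11 to 0.36, edgeR adjusted p = 0.412) and turned to -0.03 when library size alone was used for scaling. It ran from 0.068 without LPS replicate 1 to 0.21 without LPS replicate 3, and without replicate 3 of both groups Sod1 was called higher (log2 fold change 0.22, edgeR adjusted p = 0.0223). Of the 31-base words in its principal transcript, 35.4% also occur in another gene, chiefly Gm8566, which had 217, 237 and 44 counts in control and 50, 212 and 53 in LPS libraries. The Sod1 counts are uncertain to that extent.

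Levels of different genes were compared per kilobase, as CPM divided by gene length. Both of 2 lengths were used, since annotated exons with retained introns give Sod1 a union of 3970 bases against 641 in its principal transcript. Over all annotated exons, Sod2 made up 13.7%, 14.9% and 14.9% of the 3 dismutases in control libraries and 53.6%, 58.3% and 68.1% in LPS libraries. Per kilobase of the principal transcript, the shares of Sod2 were 4.78%, 5.17% and 5.15% in control and 34.1%, 37.9% and 44.2% in LPS libraries. On both lengths every LPS library was above every control library, but whether Sod2 or Sod1 was the main dismutase with LPS depended on the length. The share of Sod1 went from 73.6% to 23.5% on the first and from 92.6% to 55.1% on the second. Total dismutase level per kilobase went from 38.6 ± 1.299 to 131.7 ± 7.22 on all exons and from 190.2 ± 5.43 to 349 ± 20.4 on the principal transcripts.

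**Figure D3:**
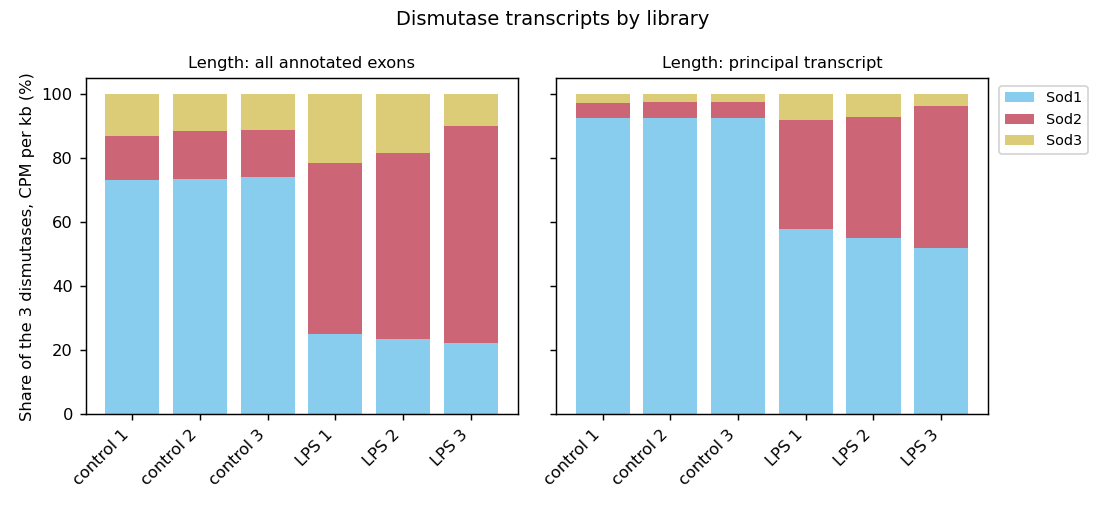
Share of Sod1, Sod2 and Sod3 in their summed CPM per kilobase in each library, as stacked bars, with all annotated exons as length on the left and the principal transcript on the right. Sod2 takes a mean of 60.0% in LPS libraries on the left and 38.7% on the right, while no control library is above 14.9% on the left or 5.17% on the right.

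Peroxiredoxins reduce peroxides through a reactive cysteine. All 3 followed here were called higher. Prdx5, found in mitochondria, peroxisomes and cytosol (chr19:6906697-6910106, minus strand), was at 95.3, 110.1 and 145 CPM in control and 459, 645 and 864 CPM in LPS libraries. Groups did not overlap, and replicate 3 was the highest in both. Prdx5 rose 5.62-fold (117 ± 25.5 to 656 ± 203 CPM, log2 fold change 2.49, SE 0.28, 95% interval 1.80 to 3.18, edgeR adjusted p = 0.00506). Within pairs of libraries with the same replicate number, the log2 ratios were 2.27, 2.55 and 2.58. It was called under all 16 alternatives, with 0.0427 the highest adjusted p. Prdx5 shares 409 exon bases with Trmt112 on the other strand, which had between 213 and 424 counts in the 6 libraries, and the strand setting of the counting is not stated. Of the 31-base words in the principal transcript of Prdx5, 30.8% also occur in Trmt112. Prdx5 and the macrophage marker sum were both highest in replicate 3 of each group, and the part of the markers in the result was not tested.

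Prdx1, the main cytosolic peroxiredoxin (chr4:116685544-116700822, plus strand), was at 612, 642 and 713 CPM in control and 1590, 1842 and 1132 CPM in LPS libraries. The groups did not overlap, and LPS replicate 3 was the lowest of its group. Prdx1 rose 2.32-fold (656 ± 52.0 to 1521 ± 359.7 CPM, log2 fold change 1.21, SE 0.19, 95% interval 0.74 to 1.69, edgeR adjusted p = 0.0144). The call was lost without control replicate 1 (adjusted p = 0.0732), control replicate 2 (0.0850), LPS replicate 1 (0.0576) or LPS replicate 2 (0.0515). Of the 31-base words in its principal transcript, 18.1% also occur in other genes. Over all its transcripts, 15.4% of the words occur in other genes. Those 417 genes held 2725032 counts together over the 6 libraries, against 133075 for Prdx1. Gm21399 shares the most words (9.71%) and had between 20 and 62 counts in the 6 libraries.

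**Figure D4:**
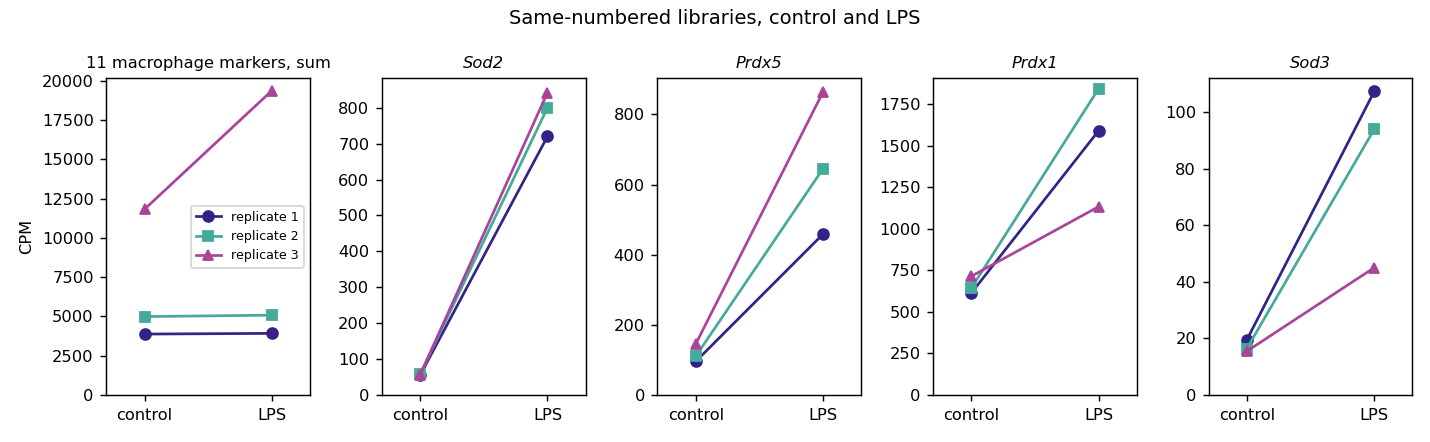
CPM in the control and the LPS library of each replicate number, joined by a line, for the sum of the 11 macrophage markers and for Sod2, Prdx5, Prdx1 and Sod3, with a separate linear axis from 0 in each panel. The log2 ratios of Sod2 within pairs lie close together, at 3.71, 3.80 and 3.91 for pairs 1, 2 and 3. Pair 3, with the highest macrophage sums, has the lowest ratio in Sod3 (1.54) and Prdx1 (0.67) and the highest in Sod2 (3.91) and Prdx5 (2.58).

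Prdx6, a peroxiredoxin with one reactive cysteine that also acts on phospholipids (chr1:161240112-161251219, minus strand), was at 193.5, 189 and 196 CPM in control and 308, 297 and 258 CPM in LPS libraries. Control libraries lay within a few CPM of each other and below every LPS library. Prdx6 rose 1.49-fold (193 ± 3.47 to 288 ± 26.1 CPM, log2 fold change 0.58, SE 0.09, 95% interval 0.36 to 0.80, edgeR adjusted p = 0.0133). The call was lost without control replicate 1 (adjusted p = 0.0689), control replicate 2 (0.0838), LPS replicate 1 (0.0554) or LPS replicate 2 (0.0658).

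Of the 3 glutathione peroxidases, Gpx1 was called lower and Gpx3 and Gpx4 were not called. Gpx1, the common cytosolic selenoenzyme (chr9:108338903-108340343, plus strand), was at 233, 237 and 219 CPM in control and 163, 151 and 154 CPM in LPS libraries. Each LPS library was below each control library. Gpx1 fell, with control 1.47-fold above LPS (229.8 ± 9.66 to 156 ± 6.07 CPM, log2 fold change -0.56, SE 0.07, 95% interval -0.74 to -0.38, edgeR adjusted p = 0.00796). The call was lost without control replicate 2 (adjusted p = 0.0594) or LPS replicate 2 (0.0500).

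Gpx3, a secreted selenoenzyme (chr11:54902453-54910377, plus strand), was at 139 CPM, 128 CPM and 159.6 CPM in control and 62.6, 55.3 and 114 CPM in LPS libraries. The groups did not overlap, and replicate 3 was highest in both. Gpx3 was not called (142 ± 16.2 and 77.3 ± 32.0 CPM, log2 fold change -0.88, SE 0.29, 95% interval -1.59 to -0.17, edgeR adjusted p = 0.0961). With the replicate number as a block it was called lower (edgeR log2 fold change -0.95, adjusted p = 0.0190). It was also called lower by DESeq2 (adjusted p = 0.0321), by the edgeR exact test (0.0348) and with library size alone for scaling (0.0441). Without LPS replicate 3, which had the highest macrophage sum, Gpx3 was called lower as well (log2 fold change -1.27, edgeR adjusted p = 0.00326). The part of the macrophage markers in this was not tested.

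Gpx4, which reduces lipid peroxides in membranes (chr10:80047166-80056439, plus strand), was at 152, 149 and 167 CPM in control and 140.6, 147 and 149.96 CPM in LPS libraries. The groups overlapped, and it was not called (log2 fold change -0.10, SE 0.08, 95% interval -0.28 to 0.09, edgeR adjusted p = 0.421). With library size alone for scaling Gpx4 was called lower (log2 fold change -0.25, edgeR adjusted p = 0.0460), and without control replicate 3 the log2 fold change was -0.032. Of the 31-base words in its principal transcript, 74.1% also occur in other genes, chiefly the pseudogene Gpx4-ps2, so the counts of Gpx4 are uncertain. No counts of the 2 genes that share words with Gpx4 appear in the 6 libraries. Cat, the haem enzyme of peroxisomes (chr2:103453849-103485160, minus strand), was at 199.8, 197 and 179.9 CPM in control and 212, 219.9 and 136 CPM in LPS libraries. The LPS libraries lay on both sides of the controls, with replicate 3 the lowest, and Cat was not called (log2 fold change -0.02, SE 0.19, 95% interval -0.50 to 0.45, edgeR adjusted p = 0.947).

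To set the transcripts against each other without treatment, CPM per kilobase was compared in control libraries. Over all annotated exons Prdx1 was the highest at 215.6 ± 17.1, followed by Gpx1 at 159.5 ± 6.71. Gpx4 (90.5 ± 5.46), Gpx3 (78.4 ± 8.93) and Cat (73.6 ± 4.15) came next, and the ranges of Gpx4 and Gpx3 and of Gpx3 and Cat overlapped. Then came Prdx5 (54.6 ± 11.9), Prdx6 (40.2 ± 0.72), Sod1 (28.4 ± 0.80), Sod2 (5.60 ± 0.12) and Sod3 (4.58 ± 0.57). On the principal transcript Sod1 moved up to the third place, at 176 CPM per kilobase, where its range overlapped that of Gpx4. Sod2 and Sod3 were the lowest on either length. With LPS, per kilobase of all exons, Prdx1 was at 499.96, Prdx5 at 306.8, Gpx1 at 108.4, Gpx4 at 84.5 and Sod2 at 78.7. Sod2 thus ranked 5 of the 10 on this length, and it ranked 6 on the principal transcript. In LPS replicate 3, Prdx5 was above Prdx1 (404 against 372 per kilobase of all exons). Prdx5 made up 6.47%, 7.36% and 9.06% of the 7 peroxide-reducing transcripts in control and 19.3%, 23.7% and 35.5% in LPS libraries, per kilobase of all exons.

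Next, the other genes of superoxide and peroxide removal were followed as 5 lists of 40 genes in all, of which 33 were tested. The edgeR test called 4 higher and 0 lower (11 higher and 4 lower at an unadjusted p under 0.05, and 9 and 4 by DESeq2). Over all genes tested, the shares were 9.09% and 6.71% by the edgeR test, 16.1% and 16% at an unadjusted p under 0.05, and 13.7% and 11% by DESeq2. The replicate block gave 8 higher and 4 lower, beside the 15.4% and 14.9% of all genes given above. The median log2 fold change of the 33 was 0.16, beside -0.02 over all genes.

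Thioredoxin and glutathione recycling had 12 genes tested, of which 2 rose and none was called lower. At an unadjusted edgeR p under 0.05, 6 were higher and 2 lower, beside 16.1% and 16% of all genes. The replicate block gave 3 as higher and 2 as lower, the latter being Txnrd3 (adjusted p = 0.0306) and Nnt (adjusted p = 0.0436). Txn1, the cytosolic thioredoxin that recharges peroxiredoxins, rose from 169.8 ± 6.62 to 301 ± 16.7 CPM (log2 fold change 0.83, SE 0.08, edgeR adjusted p = 0.00271). Gsr, glutathione reductase, rose from 30.9 ± 4.51 to 89.4 ± 12.6 CPM (log2 fold change 1.53, SE 0.15, edgeR adjusted p = 0.00330). Txnrd1, thioredoxin reductase, was at 234.5 ± 27.1 and 319 ± 46.95 CPM and was not called (edgeR adjusted p = 0.0919).

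Metal cofactor supply had 6 genes tested, of which 2 were called higher and 0 lower, beside 9.09% and 6.71% of all genes. The replicate block gave 3 higher and 0 lower, beside 15.4% and 14.9% of all genes. Slc39a14, a zinc, iron and manganese importer, rose from 61.7 ± 6.07 to 239.4 ± 26.4 CPM (log2 fold change 1.96, SE 0.12, edgeR adjusted p = 0.000683). Slc31a2, a copper transporter of internal membranes, rose from 39.9 ± 6.63 to 158 ± 74.7 CPM (log2 fold change 1.99, SE 0.35, edgeR adjusted p = 0.0186). Its libraries were at 34.6, 37.7 and 47.3 CPM in control and 103 CPM, 128 CPM and 243 CPM with LPS, so that replicate 3 was the highest in both groups, as it was for the macrophage marker sum, whose part in the result was not tested. Slc31a1, the copper importer of the plasma membrane, was at 105 ± 26.3 and 192 ± 112 CPM and was not called (edgeR adjusted p = 0.216, or 0.0376 with the replicate block).

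None of the 5 tested members of the other family members list was called (2 higher and 0 lower at an unadjusted p under 0.05). Prdx2 was at 206.6 ± 10.5 and 249.5 ± 3.42 CPM (edgeR adjusted p = 0.0543, or 0.0282 with the replicate block). Gpx8 was at 84.8 ± 12.9 and 104.5 ± 27.9 CPM (edgeR adjusted p = 0.414). Of the haem peroxidases only Pxdn was tested, at 318 ± 26.7 and 281 ± 11.7 CPM (edgeR adjusted p = 0.246). None of the 9 genes of selenoprotein synthesis and selenium supply was called (1 higher and 2 lower at an unadjusted p under 0.05, beside 16.1% and 16% of all genes). Selenop (Sepp1 in the files), the plasma selenium carrier, was the most abundant of them, at 1222 ± 371 and 432 ± 282 CPM (log2 fold change -1.50, edgeR adjusted p = 0.0926), and was called lower with the replicate block (adjusted p = 0.00834). Its libraries were at 902 CPM, 1135 CPM and 1629 CPM in control and 267 CPM, 273 CPM and 758 CPM with LPS, and replicate 3 was the highest in both groups, as for the macrophage marker sum, whose part was not tested. Sephs2, which makes the selenium donor for selenoproteins, was at 30.02 ± 7.90 and 51.2 ± 8.91 CPM (edgeR adjusted p = 0.0679, or 0.00492 with the replicate block).

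**Figure D5:**
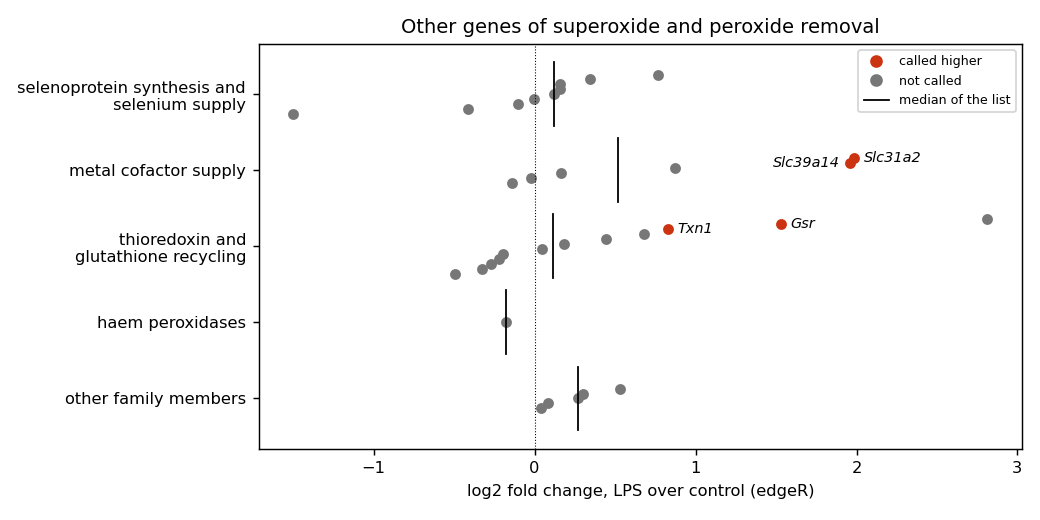
Log2 fold change, LPS over control, of the 33 tested genes of the 5 lists, with the list median as a black bar and called genes in red. Txn1, Gsr, Slc39a14 and Slc31a2 are the 4 called genes, and the grey point furthest to the right, Glrx at 2.81, was not called.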

How the data were processed

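The authors deposited 1 count file per library, which holds unnormalized whole-number counts by gene. Per the processing notes the authors used cutadapt 1.15, Bowtie2 2.3.3.1, STAR 2.5.2b, SAMtools 1.5 and featureCounts 1.5.3 on GRCm38, while the annotation release, the strand setting and the handling of multiply aligned reads were not given in the sources used here. A combined table of the same libraries was not used. Counts were tested with edgeR 4.0.16 in R 4.3.3 (TMM factors, genes with at least 10 counts in enough libraries and 15 in all, quasi-likelihood F-test, two-sided, group as the only term), which was checked on simulated data. No 2 libraries held identical values.

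The 10 genes, the lists and the motifs were chosen with earlier results of these data known. All 10 members were named, and from each list the called genes and the 2 most abundant. Other names were chosen after their values were seen. Alternatives were other scalings and filters, DESeq2 1.42.0, limma-voom 3.58.1, edgeR's exact test, leaving out each library, and the replicate number as a block. Libraries with the same number deviated together (r = 0.513, 0.334 and 0.613 across genes). The numbers were taken to pair them only in the block and in the ratios within pairs, and the main fit did not use them. Control replicate 1 with LPS replicate 2 (r = 0.419) and control replicate 2 with LPS replicate 1 (r = 0.323) also deviated together, and only replicate 3 stood apart. Gene lengths and positions came from GENCODE on GRCm38. Some listed markers are not reported here.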

Additional observations from a re-analysis of the deposited data

How the results depend on the processing

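Of the 10 transcripts, 5 were called higher under every scaling, filter, tool and the replicate block, and 6 without replicate 3 of both groups, an alternative chosen after seeing the data. Leaving out one library gave 2 to 5 called higher and 0 to 2 lower. Those called lower numbered 3 with library size alone and 2 with DESeq2, the exact test, the replicate block or without replicate 3. Cat, at -0.02, ran from -0.15 to 0.16 leaving out one library, with 0.014 without control replicate 1, 0.0029 without control replicate 2 and 0.16 without LPS replicate 3, and was at 0.14 without replicate 3, and Sod1 turned from 0.13 to -0.026 with library size alone. Of the other antioxidant genes, those called higher went from 4 to 9 with DESeq2, 8 with the block, 15 without replicate 3 and 3 to 7 leaving out one library. Those called lower went from 0 to 3 with upper-quartile factors or library size alone, 1 with 10 counts in every library or the exact test, 4 with DESeq2 or the block, 6 without replicate 3 and 0 to 2 leaving out one library. Of all genes, 1384 were called higher, against 2079 with DESeq2, 2343 with the block, 3498 without replicate 3 and 379 to 1964 leaving out one library, and 1022 lower, against 1589 with upper-quartile factors, 2054 with library size alone, 1673 with DESeq2, 2273 with the block, 3159 without replicate 3 and 112 to 1426 leaving out one library. Over all genes the log2 fold changes had a median of -0.02 under TMM, -0.12 under upper-quartile factors and -0.18 under library size alone, with 57.5%, 39.8% and 32.4% of calls higher. The mean Sod2 share of dismutases in control and LPS was 5.03% and 38.7% on principal transcripts (a length also chosen after seeing the data) and 30.2% and 79.3% as CPM without length, and on all exons leaving out one library gave 14.3% to 14.9% and 55.9% to 63.2%. The cause of these differences was not tested. The block changed the call of Gpx3 among the 10 transcripts, of Prdx2, Slc31a1, Selenop, Sephs2, Glrx, Txnrd3, Nnt and Pstk among the other antioxidant genes, and of markers that include Ano1 and Wt1, lower with the block. With 3 libraries a group, the intervals limit what can be said of Sod1, Cat and Gpx4.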

Other observations

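A further 4 genes of the lists were chosen after their values were seen. Glrx, glutaredoxin, was at 11.2, 13.3 and 32.4 CPM in control and 62.7, 59.6 and 278 CPM in LPS libraries, with replicate 3 the highest in both (edgeR adjusted p = 0.0657, or 0.00286 with the replicate block). Srxn1, which repairs overoxidised peroxiredoxins, was at 116, 117 and 129.5 CPM in control and 218, 239 and 124 CPM in LPS libraries, with LPS replicate 3 within the range of the controls (edgeR adjusted p = 0.119). Prdx3, the peroxiredoxin of the mitochondrial matrix, where SOD2 also works, was at 53.1 ± 1.008 and 54.5 ± 2.80 CPM, with overlapping groups (log2 fold change 0.04, edgeR adjusted p = 0.749). Prdx4, the peroxiredoxin of the endoplasmic reticulum, had a log2 fold change of 0.08 (edgeR adjusted p = 0.648).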
